A study of Caenorhabditis elegans with 2 samples.

Results

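The genes described here are 10 neuronal genes of *Caenorhabditis elegans* that act in the release of synaptic vesicles or build the axon, *unc-64*, *snb-1*, *ric-4*, *unc-18*, *unc-13*, *snt-1*, *unc-31*, *rab-3*, *unc-10* and *unc-44*, of 19973 protein-coding genes in all. They were chosen by name with the deposited signals of nearby regions already known, so every value below is a description and no test was made on it. A region was assigned to a gene when its summit lay between 5000 bp upstream of the gene's 5' end and its 3' end, and 77 of the 30000 regions of the pooled list met this. The annotated 5' end is that of the longest extent of the gene, and several of the genes have further transcript starts inside.

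The data are ChIP-seq of the Hox protein LIN-39 carrying an enhanced green fluorescent protein tag, from whole L4 larvae of strain OP18 (unc-119(ed3) III; wgIs18), with both sexes pooled and the age given as unknown. Both samples carry the same unc-119 allele and the same transgene insertion, and the labels name lin-39 as the target of the antibody and the tagged protein as what was profiled. They are the 2 biological replicates of 1 group, without another genotype, stage or treatment, and both were compared with the same control file. Whole animals were used and no neurons were isolated, so the lists cannot tell in which cells a region was occupied. No counts were given and the depth of each replicate is unknown. What is given is a signal for each region, the enrichment over a control, which was read as its rank within its own list and as its ratio to that list's median (relative signal). The thresholded list holds the authors' 163 peaks past an irreproducible discovery rate threshold.

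Synaptic vesicles fuse with the plasma membrane when a vesicle protein, synaptobrevin, zips together with syntaxin and SNAP-25 on the target membrane. Munc18 and Munc13 prepare syntaxin for this step, synaptotagmin senses calcium, and Rab3 and RIM hold vesicles at the release site. Nearly all worm neurons express these genes. LIN-39 acts in the mid-body, among other places in ventral cord neurons and their progenitors.

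Of the 10 genes, *unc-18*, *unc-44* and *unc-64* had a thresholded peak in the window, and each of these peaks lay upstream of the gene. Over all protein-coding genes 1.39% had one. These 3 genes were picked in part because of these peaks, and nothing is read from that difference. The *unc-18* peak (chrX:7682424-7682767) had its summit 300 bp upstream of the 5' end, the *unc-44* peak (chrIV:5974158-5974501) 1227 bp upstream, and the *unc-64* peak (chrIII:13275819-13276162) 1267 bp upstream. Each was closer to the 5' end of its own gene than to that of any other protein-coding gene. The neighbour on the upstream side was transcribed away from the gene in all 3 cases: *stn-2*, a syntrophin gene, 2276 bp from *unc-18*, *cpf-2* 8374 bp from *unc-64*, and K02B2.6 13287 bp from *unc-44*.

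The sequence around these 3 summits is shown because all 3 hold the repeat GAGAGA or its reverse complement. Each line gives 201 bases of the ce11 reference from RefSeq, centred on the summit and read on the strand of the gene, here the plus strand, with each match in capitals. The stretches run over chrX:7682496-7682696, chrIV:5974230-5974430 and chrIII:13275891-13276091.

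unc-18: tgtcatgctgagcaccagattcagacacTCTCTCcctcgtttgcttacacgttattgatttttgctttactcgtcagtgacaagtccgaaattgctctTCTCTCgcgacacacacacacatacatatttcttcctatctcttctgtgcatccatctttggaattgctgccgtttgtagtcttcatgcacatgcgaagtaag
unc-44: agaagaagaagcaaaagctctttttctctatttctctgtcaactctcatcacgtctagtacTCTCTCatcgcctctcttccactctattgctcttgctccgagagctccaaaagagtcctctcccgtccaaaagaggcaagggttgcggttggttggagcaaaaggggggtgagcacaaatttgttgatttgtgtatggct
unc-64: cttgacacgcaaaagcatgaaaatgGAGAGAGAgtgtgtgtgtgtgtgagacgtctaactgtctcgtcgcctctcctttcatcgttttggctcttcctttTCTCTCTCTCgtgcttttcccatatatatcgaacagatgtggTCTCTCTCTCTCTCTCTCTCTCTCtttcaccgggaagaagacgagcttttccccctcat

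The *unc-64* stretch held 15 overlapping matches covering 42 bases, within pyrimidine or purine runs of up to 28 bases, whereas *unc-18* held 2 matches and *unc-44* held 1. The median longest run of only purines or only pyrimidines was 9 bases over all pooled regions and 11 over the thresholded peaks. GC content was 43.8% at *unc-18*, 46.8% at *unc-44* and 47.3% at *unc-64*, against a median of 33.3% over all pooled regions and 42.3% over the thresholded peaks. Its part in the matches was not tested. The first bases of the *unc-44* stretch overlap 2 non-coding RNA genes, B0350.67 and B0350.84, and the other 2 stretches overlap no annotated gene.

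Over all 77 regions of the 10 genes, GAGAGA was found within 100 bp of the summit on either strand in 20, against 10.5% of all pooled regions and 36.2% of the thresholded peaks. The strongest region of a gene held it in 7 of 10 genes and the remaining regions in 13 of 67, beside 24.1% of the 1000 highest pooled regions and 10.1% of those below them. These sets are unlike, since the strongest regions of *snb-1*, *snt-1* and *unc-31* were below the 1000 highest and 3 others were thresholded peaks. The composite pattern of Hox and PBC proteins, TGATNNAT, was in 17 of the 77 regions, or 22.1%, against 16.9% of all pooled regions, and in none of the 3 peaks, beside 15.95% of all thresholded peaks. The homeodomain core, searched as TAATNN, was in 62 regions, or 80.5%, against 88.4%, and also in none of the 3 peaks, beside 66.3% of all thresholded peaks. CAGCTG, a control pattern, was in 3 regions, or 3.90%, against 3.58%. It was in none of the 3 peaks, beside 7.36% of all thresholded peaks, so the control also differed between these sets. TGATNNAT and TAATNN matches can share bases. All of these are matches of letters in a window, not sites.

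The syntaxin gene *unc-64*, on chromosome III from 13277258 to 13283887, showed 1 strong region among 6. Its peak ranked 98 in the pooled list with a relative signal of 2.64, and had 1.95 in replicate 1 and 2.59 in replicate 2, a mean of 2.27 ± 0.456 (SD, n = 2). The other 5 regions of the gene, from 4255 bp upstream to its 3' UTR, had relative signals of 0.796 to 0.949, all below the median of the pooled list, and none was found in both replicates.

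The synaptobrevin gene *snb-1*, which encodes the SNARE of the vesicle membrane, had no region among the 1000 highest. It is the shortest of the genes, at 940 bp on chromosome V from 6655562 to 6656501, and all 4 of its regions lay upstream. The strongest, 2777 bp upstream, had a pooled relative signal of 1.38 at rank 3449, with 1.25 in replicate 1 and 1.32 in replicate 2 (1.28 ± 0.0445, SD, n = 2). Of all protein-coding genes, 21.7% had a stronger region than this in their own window.

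The SNAP-25 gene *ric-4*, on chromosome V from 10261131 to 10270314, had 9 regions, of which 2 were among the 1000 highest, and in each of them the replicates differed widely. The first lay in an intron, 6318 bp inside the gene and 1253 bp upstream of an internal transcript start, with the 5' end of *sri-18* nearest at 3436 bp, and ranked 254 in the pooled list with a relative signal of 2.10. It ranked 202 in replicate 2 with 2.31, but 18543 in replicate 1 with 0.932 (1.62 ± 0.972, SD, n = 2). The second region lay 3870 bp upstream, nearer to the 5' end of Y22F5A.11, and showed the opposite order, with 1.91 at rank 506 in replicate 1 and 0.939 at rank 18284 in replicate 2.

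The Munc18 gene *unc-18*, which binds syntaxin, lies on chromosome X from 7682896 to 7686037 and held the strongest region of the 10 genes. Its peak ranked 80 in the pooled list with 2.85, with 2.76 at rank 61 in replicate 1 and 2.23 at rank 239 in replicate 2 (2.49 ± 0.377, SD, n = 2). A stronger region lay in the windows of 0.786% of all protein-coding genes. The other 3 regions had relative signals of 0.831 to 0.980, and none was in both replicates.

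The Munc13 gene *unc-13*, a priming factor, has the longest window, at 36.3 kb, and 16 regions. The strongest lay 2051 bp upstream of the 5' end, ranked 367 and had a pooled relative signal of 1.96, with 1.47 in replicate 1 and 1.89 in replicate 2 (1.68 ± 0.299, SD, n = 2). Intronic regions 25643 bp and 17561 bp inside the gene followed, with 1.64 at rank 1146 and 1.60 at rank 1358. Both were nearer to the 5' end of the downstream gene *spe-4*, at 6232 bp and 14314 bp, than to that of *unc-13*. Internal transcript starts of *unc-13* were nearer still, at 5259 bp and 2690 bp. The remaining 13 regions reached from 0.842 to 1.56. Of the 16, 8 were in both replicates, more than for any other of the 10 genes, which have shorter windows.

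The synaptotagmin gene *snt-1*, the calcium sensor of release, had the lowest maximum. Its strongest region, 2020 bp upstream and closer to the 5' end of F31E8.5, ranked 4304 with 1.33 and was found in replicate 1 alone, at 1.54. Only the region 2957 bp inside the gene was in both replicates, with 1.17 and 1.20 (pooled 1.21). Of all protein-coding genes, 26.3% had a stronger region in their window.

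The CAPS gene *unc-31*, which acts in the release of dense-core vesicles, had 7 regions and none among the 1000 highest. The strongest, in an intron 11535 bp inside the gene and 1258 bp upstream of an internal transcript start, ranked 1113 with 1.65, and had 1.17 in replicate 1 and 1.56 in replicate 2 (1.37 ± 0.273, SD, n = 2). It is nearest to the 5' end of F07C6.3, at 3833 bp. A region in a coding exon, 3988 bp inside, had 1.52, with 0.985 and 1.63 in the replicates. In both regions the value of replicate 2 was the higher one.

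The vesicle GTPase gene *rab-3* lies on chromosome II from 5721767 to 5727853. Its strongest region was intronic, 2509 bp inside the gene and 614 bp upstream of an internal transcript start, and ranked 322 with 2.01. It had 1.48 at rank 2805 in replicate 1 and 2.18 at rank 271 in replicate 2 (1.83 ± 0.496, SD, n = 2). The window had the highest density of regions among the 10, with 8 regions or 7.22 per 10 kb, and 4 of them were in both replicates. The 2 regions 2528 bp and 2737 bp upstream lay nearest to the 5' end of C18A3.7.

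The RIM gene *unc-10*, which tethers vesicles through Rab3, lies on chromosome X from 7272317 to 7280322 and had 4 regions, the lowest density at 3.08 per 10 kb. The strongest lay 4665 bp upstream, just inside the window, and ranked 255 with 2.10. The replicates were far apart, with 2.74 at rank 63 in replicate 1 and 1.18 at rank 8346 in replicate 2 (1.96 ± 1.11, SD, n = 2). The other 3 regions had relative signals of 0.825 to 1.10.

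For comparison with the 3 peaks, the 201 bases at the strongest *ric-4* and *unc-10* regions are shown, which were high in 1 replicate each. They are read on the minus strand, the strand of both genes, over chrV:10263896-10264096 and chrX:7284887-7285087, and GAGAGA or its reverse complement is again in capitals.

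ric-4: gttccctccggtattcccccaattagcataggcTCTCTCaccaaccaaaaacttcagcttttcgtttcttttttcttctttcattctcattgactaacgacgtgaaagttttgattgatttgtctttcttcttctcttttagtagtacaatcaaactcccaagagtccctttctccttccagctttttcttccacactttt
unc-10: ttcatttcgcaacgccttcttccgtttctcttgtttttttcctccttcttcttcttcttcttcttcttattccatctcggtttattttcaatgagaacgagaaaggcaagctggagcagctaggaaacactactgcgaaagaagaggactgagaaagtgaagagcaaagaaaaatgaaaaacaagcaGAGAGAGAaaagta

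The *ric-4* stretch held 1 match and the *unc-10* stretch 2 overlapping ones, and *unc-10* had the longest purine or pyrimidine run among the strongest regions of the 9 genes outside *unc-13*, at 35 bases. GC content was 38.8% and 39.3%, below that at the 3 peaks. The strongest regions of *rab-3* and *unc-31*, also not thresholded, had 46.8% and 44.3%, within the range of the 3 peaks. Those of *snb-1* and *snt-1* had 32.8% and 31.3%. GAGAGA was thus also found at regions that ranked high in 1 replicate and low in the other. Of the strongest regions outside *unc-13*, those of *snb-1* and *rab-3* also held it and those of *snt-1* and *unc-31* did not, and TGATNNAT was in those of *snb-1*, *ric-4* and *rab-3*.

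The ankyrin gene *unc-44*, whose product organises the axonal membrane skeleton and the axon initial segment, lies on chromosome IV from 5975557 to 6004857 and had 3 regions among the 1000 highest, the most of the 10 genes. Its window, at 34.3 kb, is longer than that of any other of the 10 genes except *unc-13*, against a median of 12.3 kb. The peak 1227 bp upstream ranked 97 with 2.65. It was the most even of the 3 thresholded peaks between the replicates, with 2.35 at rank 135 in replicate 1 and 2.31 at rank 199 in replicate 2 (2.33 ± 0.0235, SD, n = 2). A region in the 3' UTR, 29282 bp from the 5' end, ranked 366 with 1.96 (1.80 and 1.52 in the replicates). The 5' end nearest to it was that of C46G7.5, at 6806 bp. A region in an intron, 4722 bp inside the gene and 267 bp downstream of an internal transcript start, ranked 514 with 1.85 and had 1.93 in replicate 2. Replicate 1 had no region matched to it within 200 bp, and its nearest region, 4425 bp inside the gene, ranked 13303 with 1.04. Just outside the 1000 highest, an intronic region 12003 bp inside the gene ranked 1081 with 1.65, at 1.91 in replicate 1 and 0.938 in replicate 2.

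**Figure D1:**
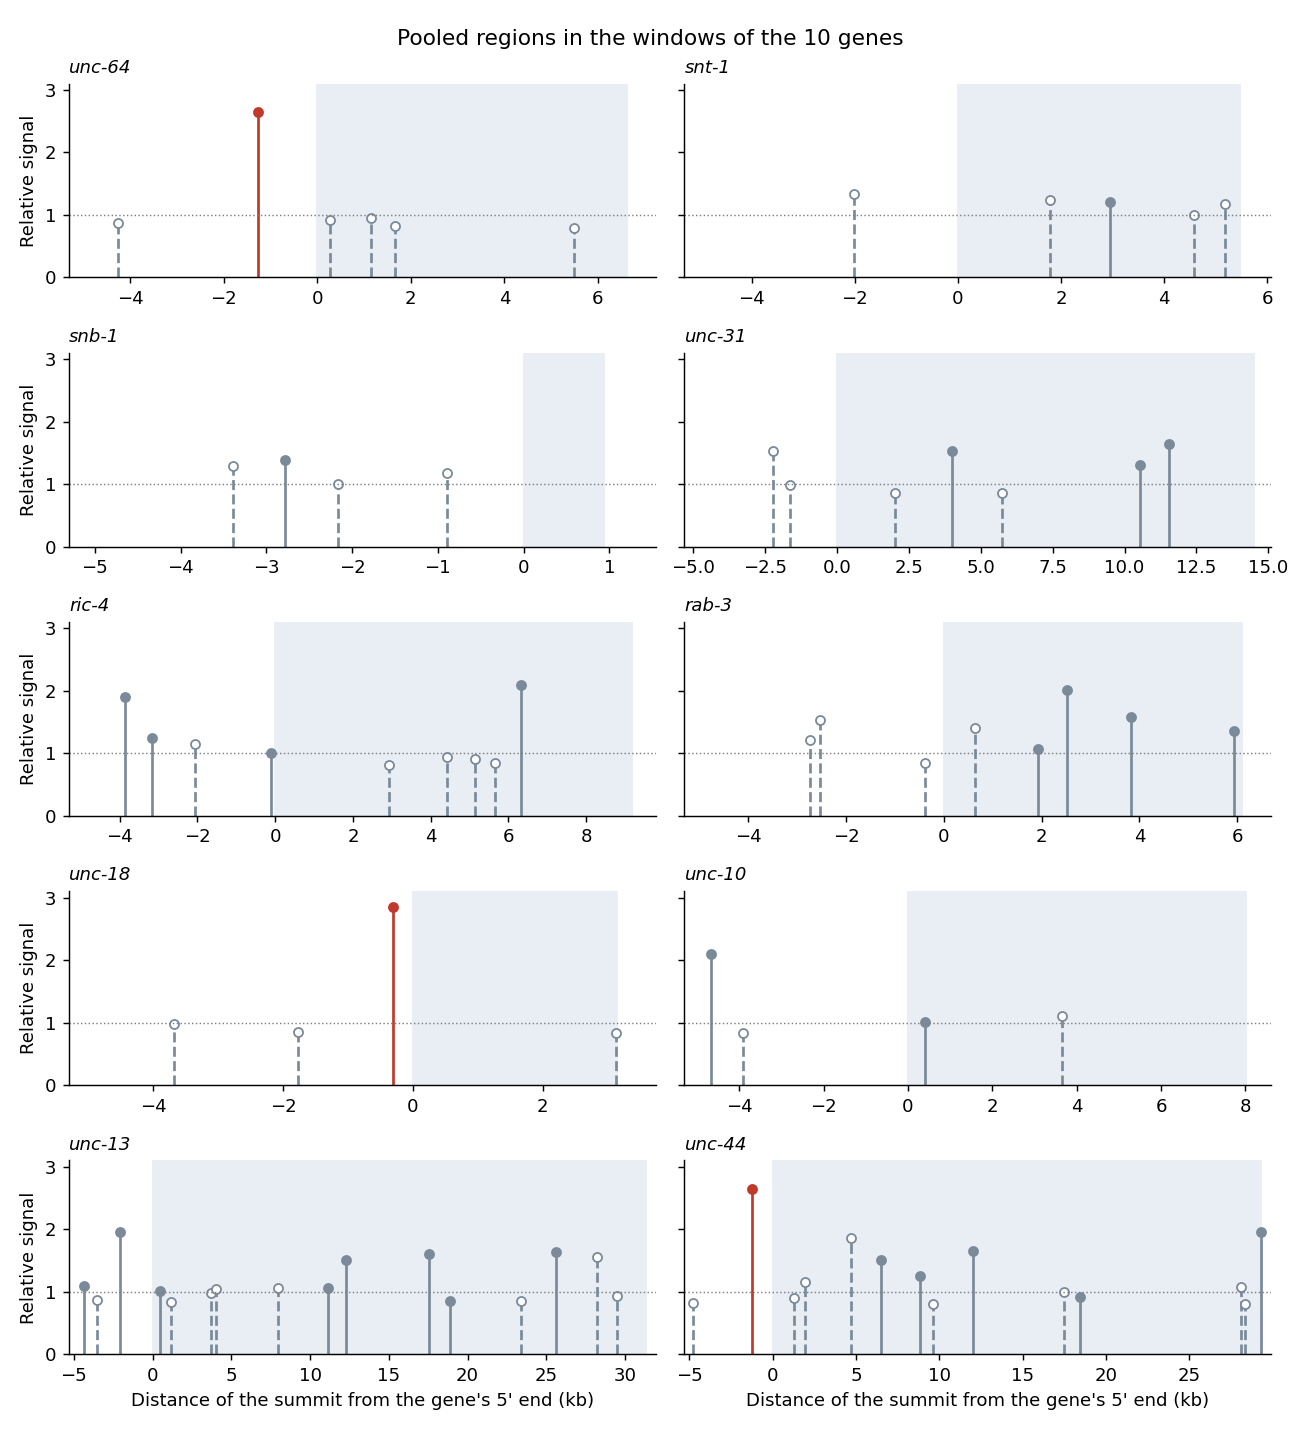
Relative signal of each pooled region (ratio to the pooled median, dotted line) against the distance of its summit from the gene's 5' end in kb, with gene bodies shaded. Red marks the 3 thresholded peaks, filled points are regions found in both replicates and open points regions found in 1 or neither, and the red peaks of *unc-64*, *unc-18* and *unc-44* stand upstream of the shaded gene.

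By the mean of the replicates, the strongest regions ran in the order *unc-18*, *unc-44*, *unc-64*, *unc-10*, *rab-3*, *unc-13*, *ric-4*, *unc-31* and *snb-1*, with *snt-1* left out for want of a value in replicate 2. No 2 neighbours in this order differed by more than the larger of their SDs, so the order of neighbours is not resolved with 2 replicates. The gap between *unc-64*, the lowest of the thresholded peaks, and *unc-10* was 0.310, against an SD of 1.11 for *unc-10*. In the pooled list, the lowest of all thresholded peaks ranked 163 with 2.34 and the next region had 2.34 too. The 163 thresholded peaks were thus the 163 highest regions of the pooled list, so the threshold acted here as a limit on pooled signal. The regions of the 10 genes nearest to this limit were *unc-64* inside, at rank 98 with 2.64, and *ric-4* outside, at rank 254 with 2.10. The authors' q-column score of the 3 peaks, whose scale is not stated, was 0.657 for *unc-18*, 0.351 for *unc-64* and 0.346 for *unc-44*.

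**Figure D2:**
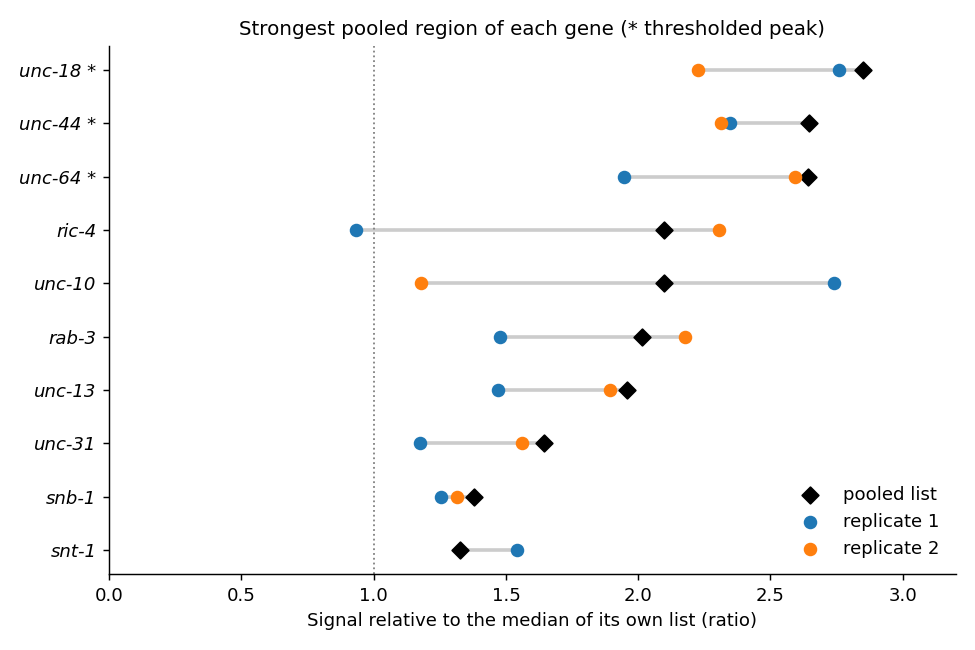
Relative signal (ratio to each list's median) of the strongest pooled region of each gene in the pooled list (diamonds), replicate 1 (blue) and replicate 2 (orange). The replicates lie close together for *unc-44* and *snb-1* and far apart for *unc-10*, from 1.18 to 2.74, and *ric-4*, from 0.932 to 2.31.

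The replicates agreed on the 3 peaks and on few of the other strong regions. The thresholded list is derived from the pooled and replicate lists, so this is not independent of it. Of the 77 pooled regions, 31 had a counterpart within 200 bp in both replicates, or 40.3%, against 28.8% of the regions in the merged windows of all protein-coding genes. Another 41 were in 1 replicate and 5 in neither. Only the peaks of *unc-18*, *unc-44* and *unc-64* were among the 1000 highest of both replicates, so 3 of the 10 genes had such a region, against 1.3% of all protein-coding genes. Among the 163 highest regions of replicate 1 alone were those of *unc-18*, *unc-44* and *unc-10*, and among the 163 highest of replicate 2 alone was that of *unc-64*. The *unc-44* and *unc-18* peaks followed in replicate 2, at ranks 199 and 239, and that of *unc-64* in replicate 1, at rank 455.

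**Figure D3:**
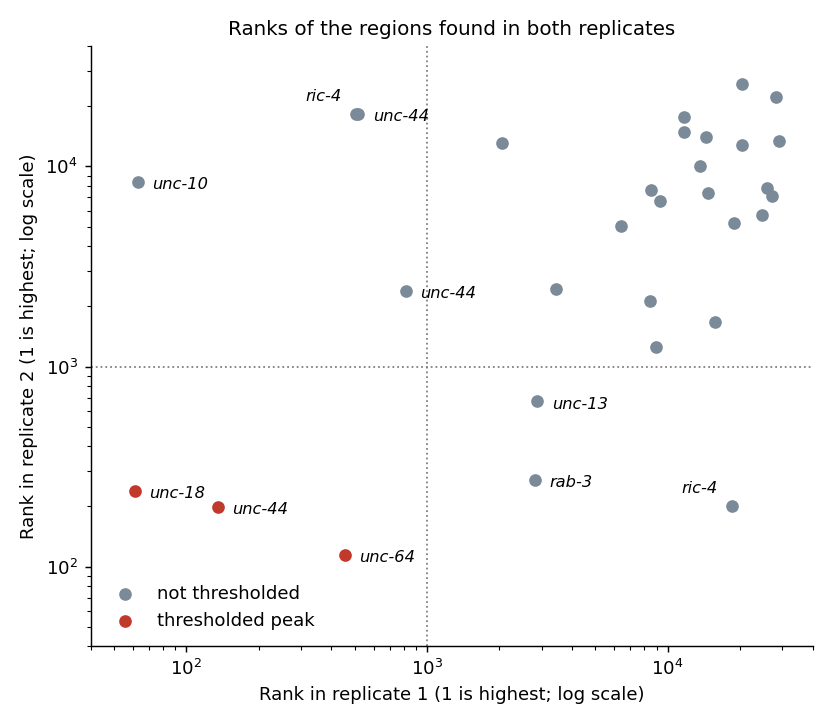
Rank in replicate 1 against rank in replicate 2, both on log axes with 1 as the highest, for the 31 regions found in both replicates. The dotted lines mark rank 1000, the 3 thresholded peaks are within the first 1000 in both replicates, and regions of *unc-10*, *ric-4*, *rab-3*, *unc-13* and *unc-44* are within the first 1000 in 1 of them.

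A region among the 1000 highest of the pooled list was found for 7 of the 10 genes, all but *snb-1*, *snt-1* and *unc-31*, against 7.22% of all protein-coding genes. Because the 10 genes were chosen with these signals known, nothing is read from this difference either. The genes are long, with a median window of 12.3 kb against 7.03 kb over all genes, and 8 of the 10 were among the 4993 genes with the longest windows, of 8.63 to 107.8 kb. Of these long genes 11.8% had a region among the 1000 highest, 2.28% a thresholded peak and 1.98% a region among the 1000 highest of both replicates. The strongest region of a gene had a median relative signal of 2.06 over the 10 genes, with a range of 1.33 to 2.85. It was 1.40 over 66 other neuronal genes of similar window length and 1.17 over the 17378 protein-coding genes with any region.

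Regions were also dense in these windows. The 10 genes had 4.68 pooled regions per 10 kb, against 3.01 over the merged windows of all protein-coding genes, and 61.0% of them exceeded the pooled median, against 49.8%. The 7 genes without a thresholded peak had 4.80 per 10 kb, and 67.9% of their regions exceeded the median. For the 3 genes with a peak these values were 4.44 and 45.8%. By position, 33 of the 77 regions lay in introns, 26 upstream, 13 in coding exons and 5 in 3' UTRs. Of the 77 regions, 10 were among the 1000 highest, against 3.36% of the regions in the merged windows of all protein-coding genes. These 10 were 6 upstream regions, which include the 3 thresholded peaks, 3 intronic ones and 1 in a 3' UTR. No share by position over all pooled regions is given here, so no preference for a position is read from these counts.

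**Figure D4:**
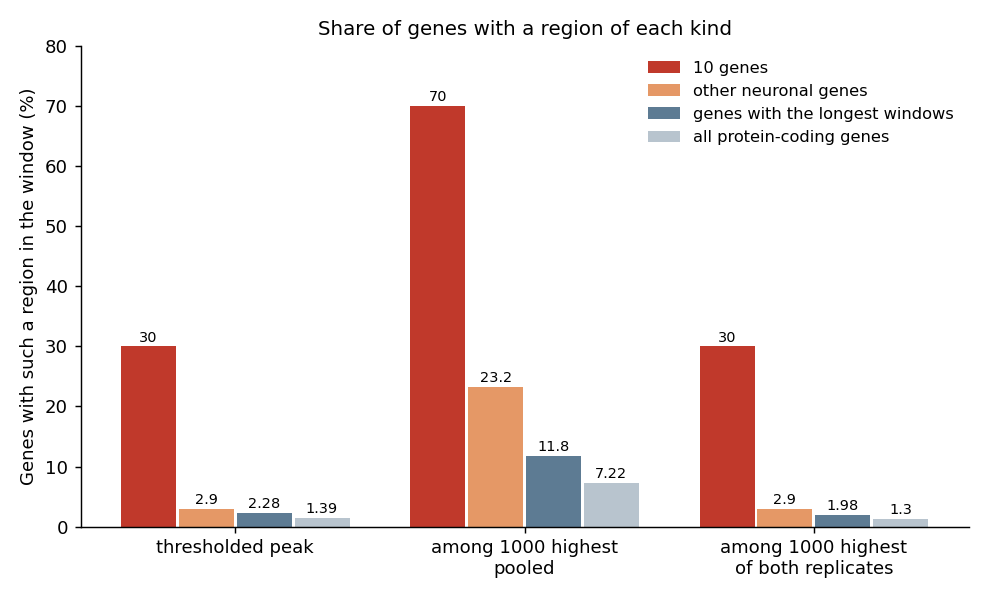
Percentage of genes with a thresholded peak, a region among the 1000 highest pooled regions or a region among the 1000 highest of both replicates in the window, for the 10 genes, 69 other neuronal genes, the 4993 genes with the longest windows and all 19973 protein-coding genes. For regions among the 1000 highest pooled regions the 69 other neuronal genes, at 23.2%, lie between the 10 genes and the 11.8% of the genes with the longest windows. The 10 genes and the other neuronal genes were chosen with earlier results of these data known, so no trend is read from this order.

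Other genes of the same processes were taken from 8 lists by role, and 69 of their 71 symbols were found in the annotation. Like the 10 genes, these lists were chosen with earlier results of these data known, so their shares are a description too. Thresholded peaks lay in the windows of 2 of the 69, or 2.90%, which is near the 2.28% of genes with long windows. Their own median window was 11.3 kb. The 2 genes came from the axonal transport list and the axonal cytoskeleton and adhesion list, and no theme is read from 2 genes. *unc-76*, a kinesin adaptor of axonal transport, had its peak 506 bp upstream at pooled rank 31, with 2.30 in replicate 1 and 4.36 in replicate 2 (3.33 ± 1.45, SD, n = 2), a higher pooled rank than any region of the 10 genes. *sax-7*, an L1-type adhesion molecule that binds ankyrin, had its peak in an intron, 6778 bp inside the gene, at rank 133, with 1.56 and 2.58 (2.07 ± 0.723, SD, n = 2).

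A region among the 1000 highest pooled regions was found for 16 of the 69 genes, or 23.2%. The share was 7.22% of all protein-coding genes and 11.8% of those with the longest windows. The lists by role hold 4 to 12 genes each, and their counts stand beside these same shares. Of the axonal cytoskeleton and adhesion list there were 4 of 10, *sax-7*, the spectrin genes *spc-1* and *sma-1*, and the tau-like gene *ptl-1*. The *spc-1* region, 727 bp upstream at rank 186, had 2.41 in replicate 1 and 1.80 in replicate 2 and, with *unc-76*, was in the 1000 highest of both. Such a region was thus found for 2 of the 69 genes, or 2.90%. It was found for 1.3% of all protein-coding genes and 1.98% of those with the longest windows. Of the fusion and vesicle proteins there were 4 of 12, the ATPase gene *nsf-1*, the complexin gene *cpx-1*, the synaptogyrin gene *sng-1* and the synaptotagmin family gene *snt-4*, with pooled relative signals of up to 2.06. Axonal transport had 2 of 8, *unc-76* and the kinase gene *jnk-1*, vesicle recycling 2 of 7, the stonin gene *unc-41* and the dynamin gene *dyn-1*, and dense-core vesicle genes 2 of 6, *ida-1* and the Rab2 gene *unc-108*. The active zone and calcium entry list had 1 of 12, *cla-1*, transmitter synthesis and transport 1 of 10, *unc-46*, and the remaining pan-neuronal genes 0 of 4. For *unc-41*, *sma-1*, *sng-1*, *cla-1*, *jnk-1*, *unc-46* and *cpx-1* the region was nearest to the 5' end of another gene.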

How the data were processed

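ChIP-seq regions of 2 replicates were analysed, with library sizes of 150 to 350 bp per the labels. According to the deposited text descriptions, the regions of a replicate came from its alignment and a control alignment, the pooled list from both, and the thresholded list from these lists. Which aligner, caller, threshold and versions were used is not given in the sources used here, so the deposited signal, an enrichment over the control, was compared between lists by rank and relative signal only. The deposited q-column score, by convention −log10 of a q-value, has a scale that is not stated. The lists held 30000 regions each, 344 or 350 bp wide, and 163 thresholded peaks. The median of the authors' signal was 16.7 in the pooled list, 8.82 in replicate 1 and 9.997 in replicate 2.

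Coordinates are 1-based on ce11, with Ensembl release 115 and the matching RefSeq genome. Regions of 2 lists were matched when their summits were each other's nearest and within 200 bp. Both replicates share 1 control. The genes and lists were chosen with earlier results of these data known. Named are the 10 genes, other neuronal genes with a thresholded peak or a region among the 1000 highest, and the gene nearest to a member's peak or strongest region; names beyond this were chosen after their values were seen. No test was made, since there is 1 group. An SD over 2 replicates covers the spread between these samples only. The functions were tested on simulated data. Lists on build ce10 were not used here. Python 3.11.15, numpy 2.4.6, pandas 2.3.3 and matplotlib 3.10.9 were used.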

Additional observations from a re-analysis of the deposited data

How the results depend on the processing

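The 3 genes with a thresholded peak remained 3 with windows of 2000 bp or 10000 bp upstream and when a region counted only for the nearest 5' end. The number became 1 for the upper part of the thresholded peaks, split at their median signal. Without one replicate or the other, taking the 163 highest regions of the remaining list, it ranged from 1 to 3. The genes were not the same: *unc-18*, *unc-44* and *unc-10* without replicate 2, and *unc-64* alone without replicate 1. The number of pooled regions in both replicates was 31 and became 20 when a region counted only for the nearest 5' end. Under this rule the number of all pooled regions in the windows also fell, from 77 to 52. The median of the strongest relative signals was 2.06 and became 1.83 with 2000 bp upstream, a window that leaves out the regions farther upstream. The numbers of genes with a region among the 1000 highest, pooled or in both replicates, and of regions in the windows stayed within 1.5 times under every alternative run. For the strongest regions, 11 single-replicate values lay farther from the pooled value than the SD of the replicates, or had no SD, and 8 lay within it. The SD grows as the replicates part, so this count does not measure how even they were. Both values lay within the SD for *unc-10*, whose replicates were far apart, and both outside it for the even *unc-44* and *snb-1*. The causes were not tested. No paired analysis was possible because the samples form 1 group. Depth is unknown, and with 2 replicates and a shared control neither the order of neighbouring genes nor a region found in 1 replicate is resolved.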

Other observations

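Several regions ranked high in 1 replicate, while the other had no region matched within 200 bp of the pooled summit. Upstream of *unc-31*, 2172 bp from its 5' end, a region of replicate 2 ranked 375 with a relative signal of 2.06, and the pooled region at this place ranked 1849 with 1.53. The nearest region of replicate 1, 2471 bp upstream, had 0.891. In an intron of *rab-3*, 619 bp inside the gene, a region of replicate 1 ranked 391 with 1.99, and the pooled region had 1.40. Upstream of *snb-1*, 3395 bp from its 5' end, a region of replicate 2 ranked 1471 with 1.66. In *unc-13*, 28210 bp inside the gene, a region of replicate 1 ranked 1327 with 1.67, and replicate 2 had a region just past the matching distance, 28429 bp inside the gene, at rank 3134 with 1.45.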
